A study of Mus musculus with 6 samples.

Results

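Connexins are the subunits of gap junctions, and 8 of their genes were examined in mammary epithelial cells (MECs). The genes were Gjb1, Gjb2, Gjb5, Gjb6, Gja1, Gja4, Gja5 and Gjc1, matched by symbol, and they make up 8 of the 55487 genes in the count table and 8 of its 20 connexin genes. They were selected on values already seen in these same libraries, the comparison of the genotypes among them, so the differences between the genotypes are given as a description, and no test of them is read as support. The MECs came from female BALB/c mice aged 10 weeks, 3 of them wild-type (WT) and 3 IL-21isoTg, and each mouse gave 1 RNA-seq library. IL-21isoTg mice carry a transgene for a membrane-bound isoform of the cytokine IL-21 that is expressed in T cells, from a promoter not given in the sources used here. Per the study's methods the mice were virgin and stages of the estrous cycle were randomized. Leukocytes (CD45), endothelial cells (CD31) and fibroblasts (CD140a) had been depleted from the digested glands, so the MECs were enriched and not sorted for a positive epithelial marker.

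Each connexin spans the membrane several times, and a ring of connexins forms a hemichannel that docks with one on the next cell. The resulting channel passes ions and small molecules such as second messengers and nutrients directly between cells. In the mammary gland, luminal secretory cells are known for Gjb2 (connexin 26), joined at lactation by Gjb1 (connexin 32), and Gjb6 (connexin 30) is also known in the luminal layer. Myoepithelial cells are known for Gja1 (connexin 43), the most widely expressed connexin of the body. Gjb5 (connexin 31.1) belongs to stratified epithelium such as skin, and Gja4 (connexin 37), Gja5 (connexin 40) and Gjc1 (connexin 45) are known from blood vessels and the heart.

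The 8 genes lie on several chromosomes of the mouse genome build GRCm38. Gjb2 (chr14:57098600-57104702) and Gjb6 (chr14:57123303-57133611) are direct neighbours on the minus strand, with 18601 bp between them. Gja4 (chr4:127311421-127314039) and Gjb5 (chr4:127354809-127358181) lie on the same chromosome, both on the minus strand. Gjb1 (chrX:101376378-101385629), Gja1 (chr10:56377330-56402513), Gjc1 (chr11:102799579-102819700) and Gja5 (chr3:96904693-97077416) each lie on a chromosome with no other member. Gja5 shares 165 exonic bp with Gpr89 on the opposite strand, and because the strand setting of the read counting is not given in the sources used here, a part of its counts cannot be assigned with certainty.

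The promoters of Gjb2 and Gjb6 are shown because these neighbours were the members whose levels differed most clearly between the genotypes. Each window holds the 250 bases before the RefSeq transcription start on GRCm38.p6, read 5′ to 3′ on the minus strand, at chr14:57104703-57104952 for Gjb2 and chr14:57133612-57133861 for Gjb6. Capitals mark matches to any of 4 motifs searched on both strands.

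Gjb2: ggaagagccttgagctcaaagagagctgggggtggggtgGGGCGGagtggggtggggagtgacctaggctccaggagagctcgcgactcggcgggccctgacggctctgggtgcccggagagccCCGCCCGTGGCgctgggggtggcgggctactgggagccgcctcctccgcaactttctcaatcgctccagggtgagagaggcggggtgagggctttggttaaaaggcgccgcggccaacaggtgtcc

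Gjb6: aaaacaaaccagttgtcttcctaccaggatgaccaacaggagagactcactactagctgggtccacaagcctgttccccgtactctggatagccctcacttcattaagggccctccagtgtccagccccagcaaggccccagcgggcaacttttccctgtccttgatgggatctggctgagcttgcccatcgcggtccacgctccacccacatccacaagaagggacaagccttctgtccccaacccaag

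G and C made up 69.2% of the Gjb2 window and 56.8% of the Gjb6 window. With the base before the start counted as -1, the Gjb2 window held GC boxes (GGGCGG, or CCGCCC on the other strand) at -211 and -126 and an AP-2 site (GCCNNNGGC) at -124, and the matches at -126 and -124 overlap. No match to any of the 4 motifs was found in the Gjb6 window. The other motifs were the STAT element TTCNNNGAA and the TATA box TATAAA. Of 32851 promoter windows of the same length, 32.7% held the GC box, 13.7% the AP-2 site, 12.4% the TATA box and 7.02% the STAT element. Windows were found for 7 of the 8 members, 10 windows in all, and none of the 10 held TTCNNNGAA. Such matches are letters in a window and not sites of binding.

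The libraries held between 15902886 and 25719244 counts, and all 8 members passed the filter on low counts, as did 17165 genes in all. Levels are given as CPM (read counts relative to the TMM-scaled depth of each library), in which a count of 3, taken as the floor, corresponds to 0.112 to 0.280 CPM. The luminal keratin Krt8 lay between 1630 and 3009 CPM in the 6 mice and the basal keratin Krt14 between 223 and 532 CPM, so epithelial markers were present throughout. Salivary gland genes, summed over 18 markers such as the amylase gene Amy1, also took 24.2%, 6.95% and 16.6% of the counts of wild-type mice 1, 2 and 3, and 23.8%, 5.33% and 42.8% of those of IL-21isoTg mice 1, 2 and 3. Most of these genes are not markers of mammary epithelium, although some, such as Lpo, are known from both glands, and the label of the cells therefore does not cover all the RNA, least of all in IL-21isoTg mouse 3. As a check of the labels, Il21 counts were 795, 216 and 131 in IL-21isoTg mice 1, 2 and 3 against 0, 0 and 37 in wild-type mice 1, 2 and 3, and Il21 reads were therefore present in wild-type mouse 3. In bulk RNA, a difference in the share of a cell type and a difference in RNA per cell cannot be told apart.

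Gjb2 and Gjb6 were the 2 members whose levels in the 3 IL-21isoTg mice all lay above those of the 3 wild-type mice. Across all genes tested, 5.54% separated in this direction. In the edgeR quasi-likelihood test, 0 of the 8 members had an adjusted p under 0.05, and so did 0 of all 17165 genes (0%). An unadjusted p under 0.05 was found for 2 of the 8, again Gjb2 and Gjb6, beside 5.82% of all genes (999 of 17165). DESeq2 called 2 of the 8, the same pair, beside 0.466% of all genes. The median log2 fold change of the 8 members was 0.50, and 7 of the 8 were higher in IL-21isoTg mice. The median of all genes tested was -0.02, and 47.9% of them were higher. Because the members were chosen with this comparison known, nothing is read from these shares and medians.

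**Figure D1:**
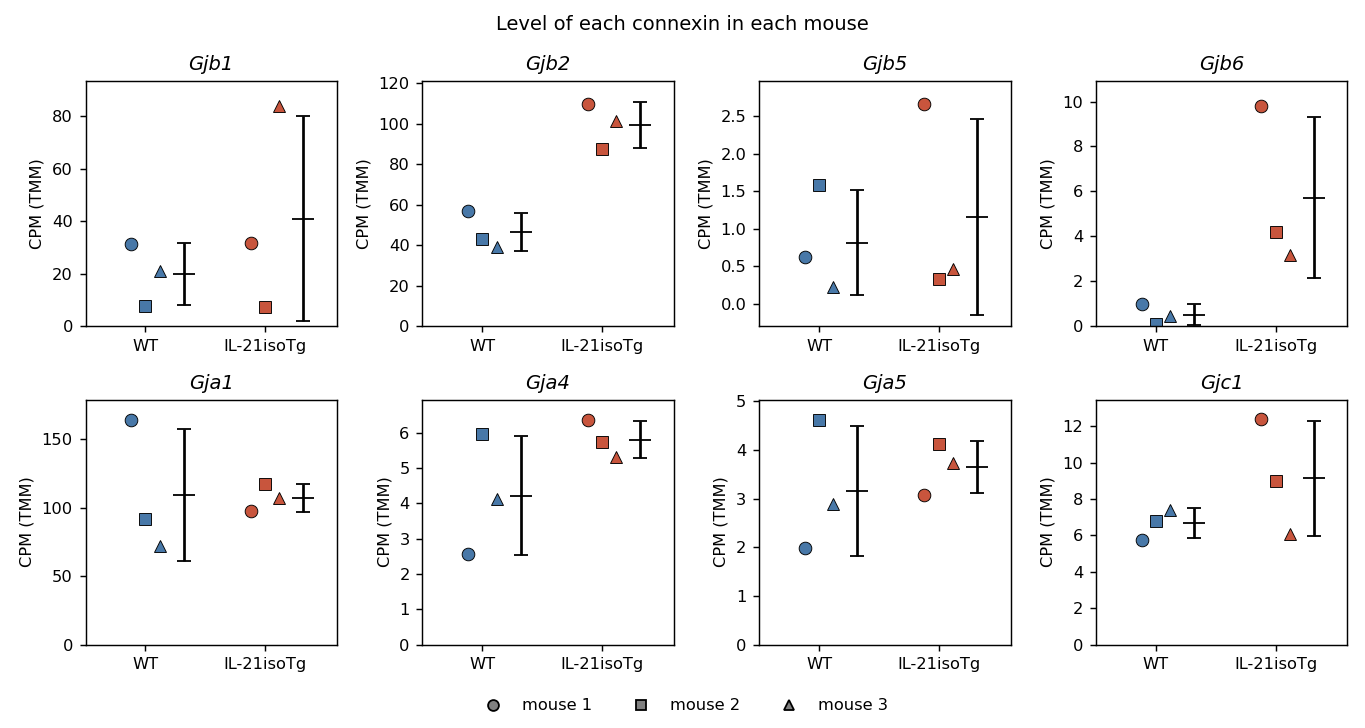
TMM-normalized CPM (vertical axis, linear) of each of the 8 connexins in 3 wild-type (blue) and 3 IL-21isoTg mice (red), 1 point per mouse, with the group mean and its SD in black. Gjb2 and Gjb6 separate the genotypes, the single high Gjb1 point is IL-21isoTg mouse 3 at 84.0 CPM, and the other panels overlap.

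Gjb2, the main connexin of luminal cells, had 56.9, 43.2 and 39.2 CPM in wild-type mice 1, 2 and 3 and 109.6, 87.4 and 101.3 CPM in IL-21isoTg mice 1, 2 and 3. The lowest IL-21isoTg mouse was well above the highest wild-type mouse. The means were 46.5 ± 9.25 and 99.4 ± 11.2 CPM (SD, n = 3 each), a difference of 1.10 on the log2 scale (SE 0.19). These values rest on 872 to 2636 counts per mouse, and the highest level exceeded the lowest 1.45-fold among wild-type and 1.25-fold among IL-21isoTg mice.

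Gjb6, which encodes a close relative that can share channels with connexin 26, was low in wild-type mice, with 0.99, 0.10 and 0.45 CPM from 22, 2 and 10 counts. In IL-21isoTg mice 1, 2 and 3 it had 9.81, 4.17 and 3.17 CPM from 236, 112 and 34 counts. The count in wild-type mouse 2 lay under the floor of 3, so the depth hardly resolves Gjb6 there. The means were 0.51 ± 0.45 and 5.72 ± 3.58 CPM (SD, n = 3 each), and the log2 fold change of 3.47 (SE 0.77) was the highest of the 8 members. It was 4.37 without wild-type mouse 1 and 2.83 without IL-21isoTg mouse 1, so its size depended on single mice. Because the groups do not overlap, leaving out 1 mouse could not reverse its direction. Without IL-21isoTg mouse 3, which had the highest share of salivary gland counts, the log2 fold change was 3.76 for Gjb6 and 1.09 for Gjb2, and without wild-type mouse 3, which had Il21 reads, it was 3.38 and 0.99.

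Within a library, the ratio of the 2 neighbours does not depend on how the libraries are scaled. Gjb6 supplied 1.71% (exact 95% confidence interval 1.08 to 2.58), 0.222% (0.0269 to 0.799) and 1.13% (0.545 to 2.08) of the counts of Gjb6 and Gjb2 together in wild-type mice 1, 2 and 3. In IL-21isoTg mice 1, 2 and 3 it supplied 8.22% (7.24 to 9.28), 4.55% (3.76 to 5.45) and 3.04% (2.11 to 4.22). All 3 IL-21isoTg shares lay above all 3 wild-type shares, although the intervals of wild-type mouse 1 and IL-21isoTg mouse 3 overlap. The intervals are Clopper-Pearson intervals and cover counting error only.

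**Figure D2:**
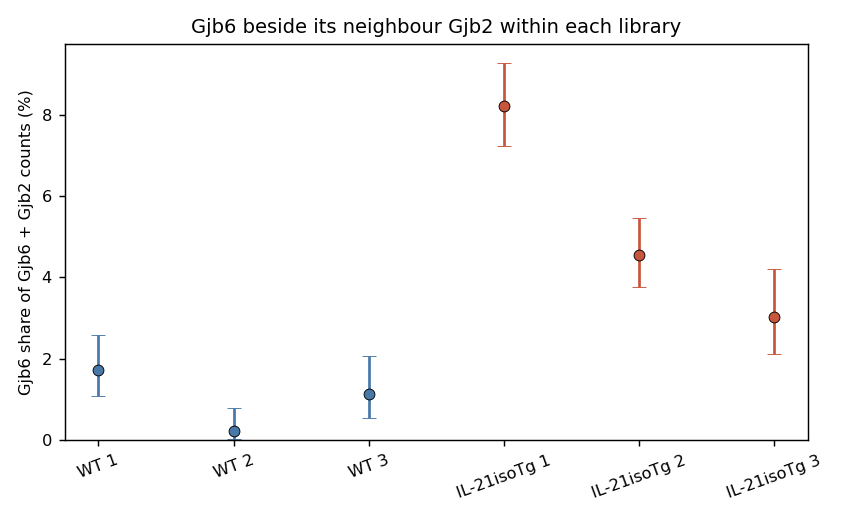
Share of Gjb6 in the summed counts of Gjb6 and Gjb2 (vertical axis, percent, from 0) in each of the 6 libraries, with exact 95% confidence intervals as bars. Wild-type mice (blue) lie at 0.222% to 1.71% and IL-21isoTg mice (red) at 3.04% to 8.22%.

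Milk protein genes, which luminal cells turn on as they become secretory, were higher in the same mice as these connexins. The 8 milk protein genes summed to 538, 523 and 1733 CPM in wild-type mice 1, 2 and 3 and to 20366, 15762 and 8818 CPM in IL-21isoTg mice 1, 2 and 3, and all 8 were higher in every IL-21isoTg mouse. Their order among the IL-21isoTg mice was that of Gjb6, with mouse 1 highest and mouse 3 lowest. Among wild-type mice the order differed, since mouse 3 was highest for milk proteins and mouse 1 for Gjb6. Wild-type mouse 3 was also the only wild-type mouse with Il21 reads (37 counts), and a link of these reads to its milk protein level was not tested. The 4 alveolar progenitor genes summed to 472 to 671 CPM in wild-type and 491 to 1021 CPM in IL-21isoTg mice. These sums overlap, and of the 4 genes only the transcription factor Elf5 did not overlap, with 95.8 to 130.7 CPM against 142.1 to 230.5 CPM. The sum of fibroblast genes separated the genotypes too, at 1965 to 3507 CPM in wild-type and 4374 to 5054 CPM in IL-21isoTg mice. Of the 7 genes, 4 were higher in every IL-21isoTg mouse. Pdgfra and Dpt overlapped, as did Dcn, with a log2 fold change of -0.27. By the root mean square (RMS) difference of log2(CPM + 0.5) after centring on the mean of the 6 mice, a measure that also counts the size of the swing, the list sums closest to Gjb2 were those of basal and myoepithelial genes (0.43) and fibroblast genes (0.45), and milk proteins were far (1.72). For Gjb6 milk proteins (1.07) and adipocyte genes (1.12) were nearest, closely followed by basal and myoepithelial (1.16), endothelial (1.18) and fibroblast genes (1.18). The 0.5 added to each CPM shrinks the swing of Gjb6, which lay under 1 CPM in every wild-type mouse. The part of secretory differentiation or of other cell types in the levels of Gjb2 and Gjb6 was not tested.

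The genes other than connexins closest to Gjb6 over the 6 mice were sought among 15388 genes with a mean of at least 1 CPM, by the same measure. They were Hephl1 (0.41), Fam20a (0.48), Thrsp (0.49), Ucp3 (0.52) and 1700012B07Rik (0.54). Hephl1, a copper-dependent ferroxidase, had 1.13, 0.24 and 0.09 CPM in wild-type and 10.1, 7.04 and 3.64 CPM in IL-21isoTg mice. Thrsp, which promotes fatty acid synthesis, had 3.70, 2.55 and 7.20 CPM in wild-type and 66.8, 32.9 and 20.1 CPM in IL-21isoTg mice. For Gjb2 the closest genes were Gm6542 (0.12), Folr1 (0.14), Hs3st3b1 (0.14), Lbp (0.18) and Pcsk5 (0.19), and Folr1, a folate receptor, lay at 19.0 to 29.7 CPM in wild-type and 46.9 to 59.6 CPM in IL-21isoTg mice. These are likenesses over 6 libraries in 2 groups and say nothing of shared control.

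The other tested neighbours of Gjb6 on chromosome 14 were 1 gene beyond Gjb2 and 2 genes on the other side. None of them had an adjusted p under 0.05, and so did 0 of all 17165 genes (0%), Gjb2 and Gjb6 included. Zmym2, a zinc finger gene beyond Gjb2, had a log2 fold change of -0.30 (SE 0.14), with 54.7 to 62.9 CPM in wild-type and 45.5 to 49.6 CPM in IL-21isoTg mice. On the other side, Cryl1, an enzyme of sugar metabolism, had -0.43 (SE 0.26) and Gm8971 had 0.14 (SE 0.52). The adjusted p-values of these 3 genes lay between 0.809 and 0.969 in the edgeR quasi-likelihood test.

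Gjb1, the connexin of secretory cells in liver and exocrine glands as well as of the lactating breast, had 31.3, 7.69 and 20.8 CPM in wild-type mice 1, 2 and 3 and 31.5, 7.37 and 84.0 CPM in IL-21isoTg mice 1, 2 and 3. The groups overlap, and the highest level by far was that of IL-21isoTg mouse 3, and mouse 1 of either genotype had nearly the same level, as did mouse 2. The log2 fold change of 1.03 (SE 0.79) fell to -0.02 without IL-21isoTg mouse 3. Salivary gland genes summed to 243247, 56820 and 149971 CPM in wild-type and 254095, 45691 and 634760 CPM in IL-21isoTg mice 1, 2 and 3, which ranks the 6 mice in the same order as Gjb1. Of the 18 lists of marker and pathway genes, the salivary gland sum lay closest to Gjb1 (RMS difference 0.15), and the next list, leukocytes, was at 0.945. With the level of the salivary gland genes as a covariate, the log2 fold change of Gjb1 was -0.30 (SE 0.20). That of Gjb2 was 1.02 (SE 0.19) and that of Gjb6 3.31 (SE 0.78). The part of salivary gland cells in the level of Gjb1 was not tested. Of the 18 salivary genes, 16 passed the low-count filter and Smgc was at 0 in 5 of 6 mice.

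**Figure D3:**
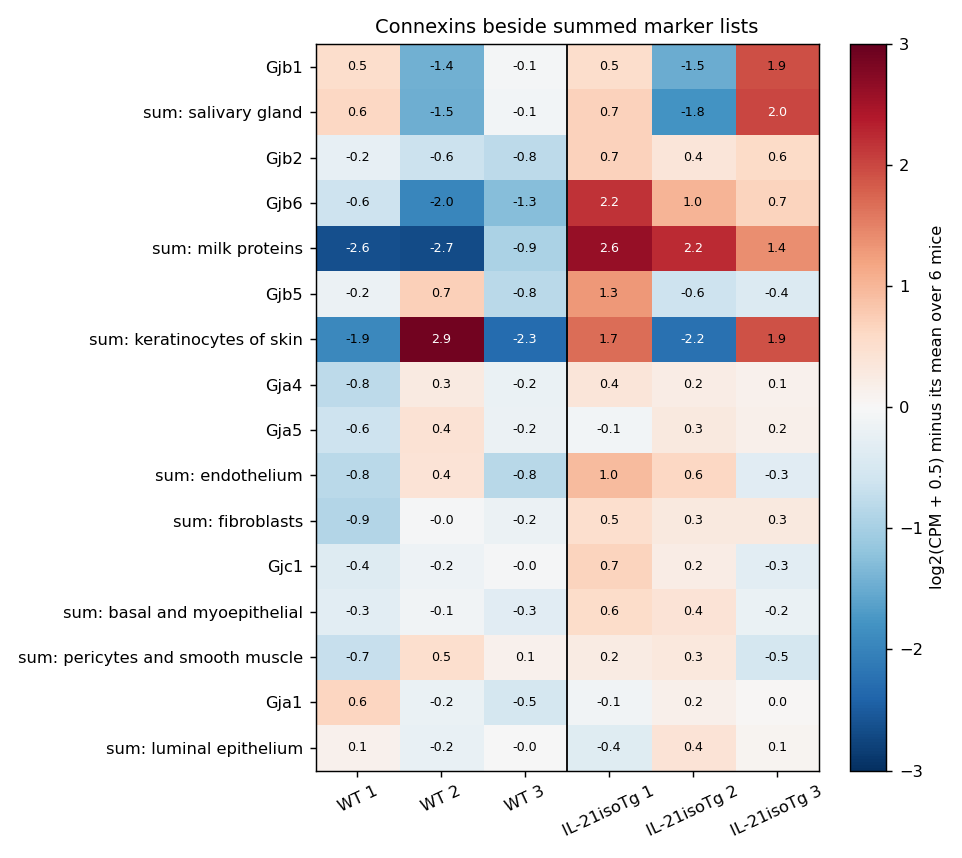
Level of the 8 members and of 8 summed marker lists in each mouse, as log2(CPM + 0.5) minus the mean over the 6 mice (colour and printed value, limits of the scale at -3 and 3). Gjb1 runs beside the salivary gland sum. Gjb2, Gjb6, the milk protein sum and the fibroblast sum are negative in all wild-type and positive in all IL-21isoTg mice. Each of them separates the genotypes, so after centring this shared sign is nearly given and is not read as a likeness.

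Gjb5, a connexin of stratified epithelium, was at the edge of detection, with 0.63, 1.59 and 0.22 CPM in wild-type mice 1, 2 and 3 and 2.66, 0.34 and 0.47 CPM in IL-21isoTg mice 1, 2 and 3. These were 14, 33, 5, 64, 9 and 5 counts. The groups overlap, and the log2 fold change of 0.54 (SE 0.95) was -1.04 without IL-21isoTg mouse 1 and 1.45 without wild-type mouse 2. The 2 mice with most Gjb5 were also high for markers of skin keratinocytes, which summed to 13.3, 389.3 and 10.0 CPM in wild-type and 166.8, 10.6 and 195.9 CPM in IL-21isoTg mice. IL-21isoTg mouse 3 was high for these markers and low for Gjb5, so the relation did not hold in every library. Over all 6 mice the keratinocyte sum was far from Gjb5 (RMS difference 1.74), and the closest list was endothelium (0.60). The epidermal keratin Krt1 ranged from 0.27 to 130.9 CPM, and of the 8 keratinocyte genes 7 passed the low-count filter. The part of keratinocytes or endothelial cells in the level of Gjb5 was not tested.

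Gja1, the connexin of myoepithelial and many other cells, had 163.7, 91.4 and 72.2 CPM in wild-type mice 1, 2 and 3 and 97.2, 117.1 and 107.0 CPM in IL-21isoTg mice 1, 2 and 3. All 3 IL-21isoTg values lay inside the wild-type range, and the log2 fold change was -0.03 (SE 0.29). Wild-type mouse 1 alone held the wild-type mean up, since the log2 fold change was 0.40 without it. The sum of 10 basal and myoepithelial genes was 2156, 2481 and 2111 CPM in wild-type and 3925, 3537 and 2326 CPM in IL-21isoTg mice, an order unlike that of Gja1 (RMS difference 0.50). The list sum closest to Gja1 was that of the other connexins (0.31), followed by luminal epithelium (0.33). The part of luminal or basal cells in the level of Gja1 was not tested. The nearest single genes were Plscr1 (0.068), a phospholipid scramblase, and Cd68 (0.078), a lysosomal protein of macrophages, followed by Gm10156, Gm17509 and Tspan5.

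Set beside Gja1 in the same library, Gjb2 gave 25.8%, 32.1% and 35.2% of the counts of both genes in wild-type mice 1, 2 and 3 and 53.0%, 42.7% and 48.6% in IL-21isoTg mice 1, 2 and 3. The lowest IL-21isoTg share exceeded the highest wild-type share. The counts of Gja1 come from a longer transcript, so these shares compare mice and not the amounts of the 2 transcripts.

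Gja4 and Gja5, connexins of arterial endothelium, were low and close to each other in pattern. Gja4 had 2.57, 5.96 and 4.14 CPM in wild-type and 6.36, 5.73 and 5.32 CPM in IL-21isoTg mice, with a log2 fold change of 0.46 (SE 0.35). Gja5 had 1.98, 4.61 and 2.88 CPM in wild-type and 3.08, 4.13 and 3.73 CPM in IL-21isoTg mice, with a log2 fold change of 0.21 (SE 0.39). Wild-type mouse 1 was lowest for both genes, and both groups overlap. Gja4 supplied 56.4% to 59.0% of the counts of the pair in wild-type mice and 67.4%, 58.1% and 58.8% in IL-21isoTg mice 1, 2 and 3. The exact interval of IL-21isoTg mouse 1 (60.9 to 73.5) overlapped those of all 5 other mice.

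Cells carrying CD31 had been depleted, yet endothelial genes were detected in every library. The 10 endothelial genes summed to 125.7, 292.2 and 123.1 CPM in wild-type and 428.6, 343.1 and 175.9 CPM in IL-21isoTg mice, and Pecam1, which encodes CD31, lay between 20.6 and 86.2 CPM. The 5 arterial genes summed to 34.1, 81.3 and 68.9 CPM in wild-type and 72.5, 77.9 and 31.9 CPM in IL-21isoTg mice. Fibroblast genes had the sum closest to Gja4 (RMS difference 0.16). The part of endothelial or stromal cells in the levels of Gja4 and Gja5 was not tested.

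Gjc1, known from smooth muscle and conducting tissue, had 5.77, 6.82 and 7.42 CPM in wild-type mice 1, 2 and 3 and 12.4, 9.01 and 6.06 CPM in IL-21isoTg mice 1, 2 and 3. IL-21isoTg mice 1 and 2 were above all wild-type mice and mouse 3 was not, and the log2 fold change was 0.46 (SE 0.30). The sum of basal and myoepithelial genes lay closest to it (RMS difference 0.16), while the sum of 7 pericyte and smooth muscle genes was 200.6, 459.2 and 355.9 CPM in wild-type and 383.4, 406.0 and 225.2 CPM in IL-21isoTg mice. The part of these cell types in the level of Gjc1 was not tested.

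**Figure D4:**
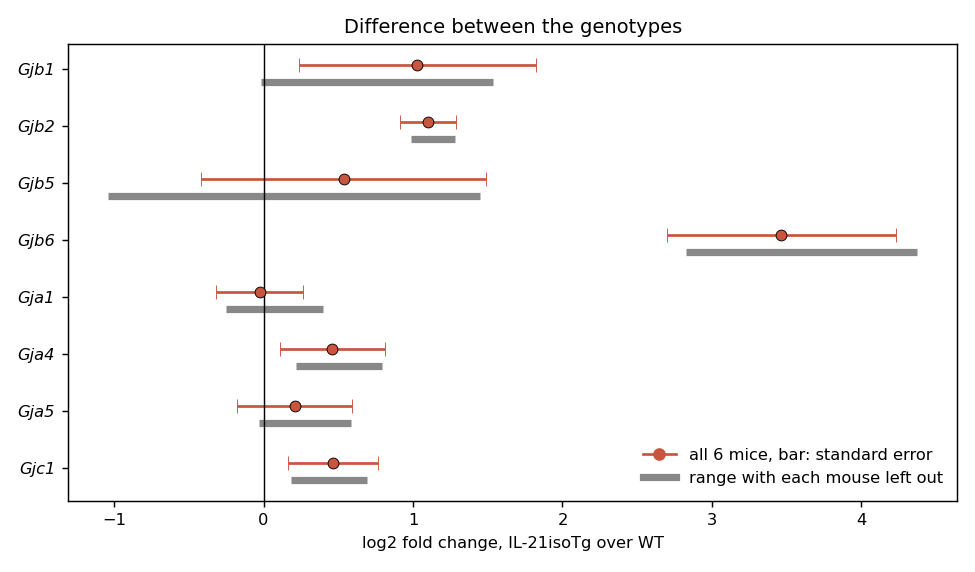
Log2 fold change of IL-21isoTg over wild-type mice (horizontal axis) for each connexin over all 6 mice, with its standard error (red), and the range when each mouse was left out in turn (grey). The grey bars of Gjb2 (0.99 to 1.28) and Gjb6 (2.83 to 4.37) lie far above 0, those of Gja4 and Gjc1 nearer to it, and those of the other 4 members cross it. Gjb2 and Gjb6 do not overlap between the genotypes, so their bars could not cross 0.

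Levels of different connexins were compared per length, as CPM per kb of the longest principal transcript of each gene in the GENCODE M21 annotation. The medians of the 6 mice ran from Gja1 (32.1) and Gjb2 (29.98) over Gjb1 (16.4) to Gja4 (3.28), Gjc1 (3.08), Gja5 (1.09), Gjb6 (0.99) and Gjb5 (0.32). Among neighbours in this order, only Gjb1 over Gja4 and Gjc1 over Gja5 held in all 6 mice. Gjb2 exceeded Gjb1 and Gjb6 exceeded Gjb5 in 5 of 6 mice. Gja1 exceeded Gjb2 in 4 of 6 mice, Gja5 exceeded Gjb6 in 3 of 6 and Gja4 exceeded Gjc1 in 2 of 6, so these neighbours are not ordered beyond their spread. Per kb of all exonic bases, which counts 10257 bp for Gja1 in place of 3182 bp, Gja1 had a median of 9.95 and fell to the third place, after Gjb2 and Gjb1.

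Within each mouse, Gja1 made up 51.3%, 47.5% and 38.4% of the summed level per kb of the 8 members in wild-type mice 1, 2 and 3 and 27.2%, 41.6% and 24.5% in IL-21isoTg mice 1, 2 and 3. Gjb2 made up 23.6%, 29.7% and 27.6% in wild-type and 40.6%, 41.0% and 30.6% in IL-21isoTg mice. Per kb of principal transcript Gja1 led in all 3 wild-type mice, and in IL-21isoTg mouse 2 by a narrow margin. Gjb2 led in IL-21isoTg mouse 1. Gjb1 led in IL-21isoTg mouse 3 with 38.6%, and this library had the highest share of salivary gland counts (42.8%). A high share of Gjb1 also lowers the shares of the other members. Gjb6 made up at most 4.15% in any mouse. Per kb of all exonic bases Gja1 led in no mouse. Gjb2 then exceeded Gja1 in every mouse, with 23.6, 18.0 and 16.3 against 16.0, 8.91 and 7.04 in wild-type mice 1, 2 and 3.

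**Figure D5:**
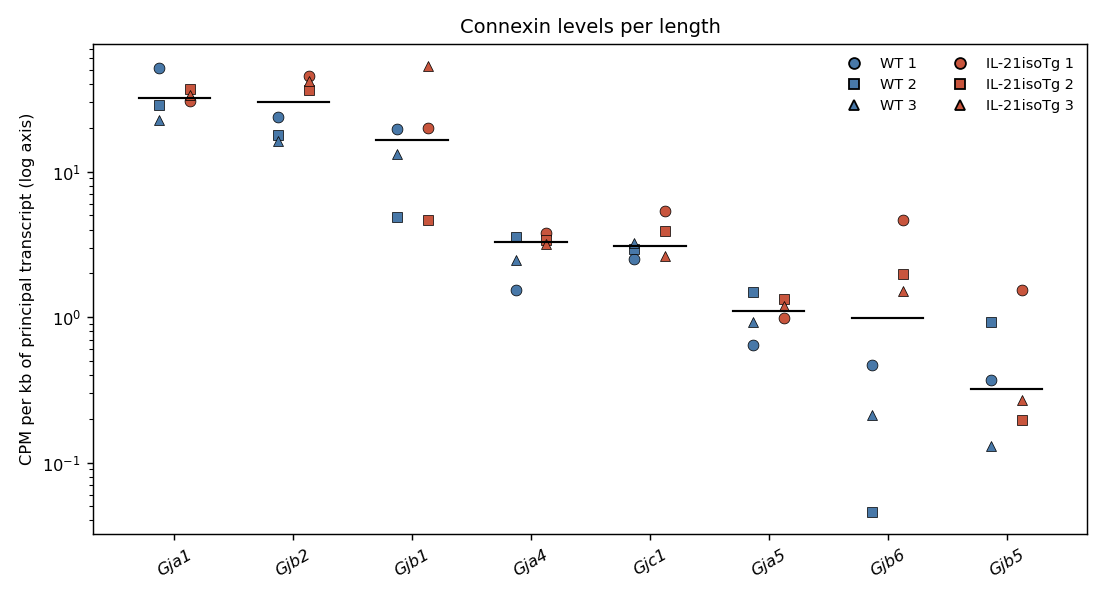
Level per kb of principal transcript (vertical axis, log scale) of the 8 connexins, 1 point per mouse, wild-type in blue and IL-21isoTg in red, with the median of 6 mice as a line. The first 3 genes have medians of 16.4 to 32.1, and Gjb6 spreads from 0.046 to 4.66, the widest range of the 8 on this scale.

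Of the other 12 connexin genes, 4 passed the low-count filter and 0 of these 4 had an adjusted p under 0.05 in the edgeR quasi-likelihood test. Among them Gjc3 had 2.16, 2.11 and 2.74 CPM in wild-type and 2.25, 2.61 and 4.94 CPM in IL-21isoTg mice, with a log2 fold change of 0.46, and the groups overlap. Among the 8 members, Gja4 and Gja5 had the most similar pattern over the 6 mice (RMS difference 0.21), followed by Gja4 and Gjc1 (0.33).

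Partners of the channels and pannexins were examined next, and 0 of the 20 genes of these lists and the other connexins had an adjusted p under 0.05 in the edgeR quasi-likelihood test, the same as over all genes (0%). An unadjusted p under 0.05 was found for 0 of the 20, beside 5.82% of all genes, a share near the background at this number of genes. Of the pannexins, which form channels of another family, Panx1 lay between 11.5 and 20.8 CPM with a log2 fold change of 0.09, Panx2 had 14, 23 and 25 counts in wild-type and 10, 22 and 0 in IL-21isoTg mice with a log2 fold change of -1.08 (SE 0.86), and Panx3 did not pass the low-count filter. All 14 genes of connexin partners, such as the scaffold Tjp1 and the kinase Src, were tested and 0 had an adjusted p under 0.05, with 8 of 14 higher in IL-21isoTg mice and a median log2 fold change of 0.02. Their log2 fold changes ran from -0.28 for Cdh1, which encodes E-cadherin, to 0.34 for Cav1, which encodes caveolin. Of the 14, 1 gene, Ctnnb1 (beta-catenin), was lower in every IL-21isoTg mouse than in any wild-type mouse. Its log2 fold change was -0.19 (adjusted p = 0.854, edgeR quasi-likelihood test). In the other direction 5.54% of all genes tested separated, and nothing is read from 1 gene of 14.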

How the data were processed

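RNA-seq was performed on MECs of 3 wild-type and 3 IL-21isoTg mice with a directional poly(A) library kit. The submitters' processing notes name FastQC 0.11.7, Trimmomatic 0.38, HISAT2 2.1.0, SAMtools 1.9, featureCounts 1.6.3, DESeq2 1.24.0 and the build mm10, and the annotation and strand setting are not given in the sources used here. The authors deposited whole-number counts of reads per gene, which were analysed here. Their table of counts divided by size factors and the table of their own comparison (fold changes and p-values) were not used.

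Genes were filtered with filterByExpr (minimum count 10, minimum total count 15), normalized with TMM and compared with the edgeR 4.0.16 quasi-likelihood test in its original form with robust dispersions and genotype as sole term. Adjustment was by the Benjamini-Hochberg method over 17165 genes, with a threshold of 0.05. Alternatives were other scalings, filters and tests (DESeq2 1.42.0, limma 3.58.1), the replicate block, a salivary gland covariate and leaving out each mouse. The newer quasi-likelihood form, total counts as a scale and the principal transcript as a length were added after the data were seen. With 15902886 to 25719244 counts per mouse, the floor of 3 counts is 0.112 to 0.280 CPM. Marker lists were summed in CPM. Positions and lengths came from GENCODE M21 (GRCm38) and promoters from RefSeq. Python 3.11.15 and matplotlib 3.10.9 were used. The 8 members, other connexins that passed the filter, the 5 genes nearest to each of 3 members, the nearest tested neighbours of Gjb6 and the markers were named by rule, and members and lists were chosen with earlier results of these data known. Nothing in the labels says whether the mice of a genotype were littermates or were prepared together. Some genes that this rule names are not reported here.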

Additional observations from a re-analysis of the deposited data

How the results depend on the processing

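Of the 8 connexins, 0 were called with edgeR's quasi-likelihood test, and 2 (Gjb2 and Gjb6) were called with the DESeq2 Wald test and 2, the same genes, with edgeR's likelihood ratio test. All the other settings that were run called 0 of the 8, and 0 of the other pathway genes were called under any setting. DESeq2 called 80 of all genes and the likelihood ratio test 65, beside 0 in the quasi-likelihood test. With no low-count filter 14 genes were called and without wild-type mouse 3 there were 6, none of them a connexin of the 8. Asking for at least 10 counts in every mouse left Gjb5 and Gjb6 untested.

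Over the other scalings, filters and tests, the log2 fold change of Gjb6 ran from 3.30 to 3.80 and that of Gjb2 from 0.83 (total counts) to 1.13, and Gjb2 and Gjb6 did not overlap between the genotypes on any of the 4 scales tried. Gja1, Gja5 and Gjb1 had both signs among these alternatives. Leaving out each mouse in turn gave 2.83 to 4.37 for Gjb6, 0.99 to 1.28 for Gjb2, -0.02 to 1.53 for Gjb1 and -1.04 to 1.45 for Gjb5.

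With the replicate block, the log2 fold changes were 3.62 for Gjb6, 1.11 for Gjb2 and 0.64 for Gjb1, and 0 of the 8 were called. Mice with the same number did not deviate together (correlations of -0.22, 0.07 and -0.06), so the numbers were not taken to pair the mice. Depth limits Gjb5 and, in wild-type mice, Gjb6, where 2 to 22 counts were available.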
